A study of Rattus norvegicus with 6 samples.

Results

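Transcripts of neutrophil granule and antimicrobial proteins were measured in the dorsal root ganglion, where the cell bodies of sensory neurons lie outside the spinal cord, after injury of a peripheral nerve. The set was named by gene symbol and holds 10 genes: S100a8, S100a9, Mpo, Camp, Ngp, Np4, RatNP-3b, Defa5, Retnlg and Ltf. Group averages were present for 9 of the 10, among 18696 genes with averages, and values for each library were present for 3 of them (Defa5, Np4 and Mpo), among 1637 genes with such values. Their NCBI Gene IDs in the files are 116547 (S100a8), 94195 (S100a9), 303413 (Mpo), 316010 (Camp), 301026 (Ngp), 286958 (Np4), 498659 (RatNP-3b), 286995 (Defa5) and 288135 (Retnlg). Ltf, which encodes lactoferrin, was not analysed here. In 3 SNI libraries the SD rats had a spared nerve injury: of the terminal branches of the sciatic nerve, the tibial and the common peroneal nerve were ligated and cut, and the sural nerve was spared. In 3 sham libraries the nerve and its branches were exposed and the skin was closed. The labels name no gene alteration or drug in either group, and the age of the rats, the time after surgery, the side and level of the ganglia and any pooling of animals were not stated in the labels. Since the labels do not say that libraries came from separate rats, p-values below speak of the spread among these samples alone, and that spread may be technical.

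Neutrophils are short-lived white cells that are made in the bone marrow, circulate in blood and enter tissue at sites of damage. They carry their weapons in granules that are filled in a fixed order as the cell matures: azurophil granules first (myeloperoxidase, serine proteases, defensins), specific granules next (lactoferrin, cathelicidin, lipocalin) and gelatinase granules last. The transcripts follow the same order, so that those of azurophil proteins are known mainly from early precursors in the marrow. The calcium-binding proteins S100A8 and S100A9 fill the cytosol of mature neutrophils and of young monocytes, and when released they bind the receptors TLR4 and RAGE.

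The average level was higher in SNI than in sham for 8 of the 9 measured genes and lower for Mpo. For comparison, 53.1% of all 18696 genes had a higher average in SNI. Levels are in TPM, an abundance unit that corrects for gene length and scales every library to the same total. Summed over the 9 genes, the authors' averages came to 642 TPM in SNI and 420.4 TPM in sham. On the log2(TPM + 1) scale the median ratio of SNI over sham was 0.54 for the 9 genes and 0.02 for all genes. Apart from Retnlg at the upper end and Mpo at the lower end, the other 7 genes lay close together, with TPM ratios between 1.38 and 1.64. In bulk tissue, more cells of a type and more RNA per cell cannot be told apart, and the averages of 6 of the genes come without values for each library, so their differences have no replicate check.

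**Figure D1:**
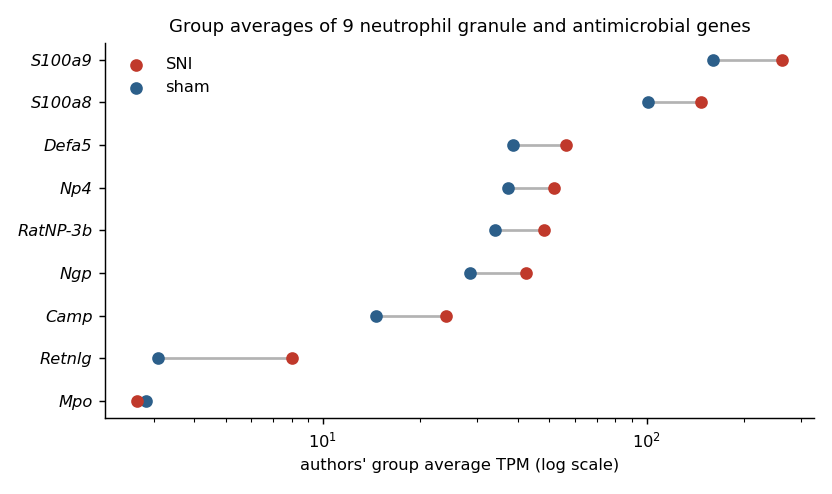
Average TPM of each group for 9 genes, on a log axis, with SNI in red and sham in blue and a grey line joining both averages of a gene; averages carry no error. The SNI average lies to the right of the sham average for 8 genes, from S100a9 (262 TPM in SNI and 160.4 TPM in sham) down to Retnlg (8.02 TPM in SNI and 3.10 TPM in sham), and to the left of it for Mpo (2.67 TPM in SNI and 2.84 TPM in sham).

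S100a9 and S100a8, which encode the partners of the heterodimer calprotectin, were the most abundant members. The authors' average of S100a9 was 262 TPM in SNI and 160.4 TPM in sham, and that of S100a8 was 147 TPM in SNI and 101 TPM in sham. S100a9 stood among the more abundant transcripts of the ganglion, as 4.50% of genes had a higher mean of both group averages. Together the pair made up 63.7% of the summed TPM of the 9 genes in SNI and 62.1% in sham. The TPM of S100a9 was 1.79 times that of S100a8 in SNI and 1.59 times in sham. The average read counts behind these values were 1099 in SNI and 666 in sham for S100a9. They were 438 in SNI and 298 in sham for S100a8. Read as 3 libraries a group, they gave a read ratio of SNI over sham of 1.65 for S100a9 (95% exact binomial interval 1.56 to 1.75) and of 1.47 for S100a8 (1.35 to 1.60). These intervals, here and below, cover counting error only and not the spread between libraries. Of the 9 members, 8 had an interval above 1 and none below 1. Of all genes, 31.7% had an interval above 1 and 23.3% below 1, so an interval above 1 is common in these data. A larger log2 ratio than that of S100a9 was found in 4.42% of genes, and than that of S100a8 in 6.63%. No other gene lies between S100a8 and S100a9 in the GRCr8 gene order on chromosome 2. Neither gene was in the authors' deposited table of higher genes, in which the smallest read ratio, computed from the deposited averages, was 2.02.

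The defensins are short cysteine-rich peptides of azurophil granules that insert into microbial membranes. Defa5 (known also as ratNP-1 and ratNP-2 in RefSeq), Np4 and RatNP-3b lie in 1 cluster on chromosome 16, where all 12 genes between Defa5 and RatNP-3b in the GRCr8 order are Np4 or genes and pseudogenes named Defa. Defa5 had 61.1, 50.3 and 57.2 TPM in the 3 SNI libraries and 35.9, 44.2 and 36.2 TPM in the 3 sham libraries. All SNI libraries lay above all sham libraries, with the nearest values in SNI replicate 2 and sham replicate 2. Np4 had 51.5, 49.0 and 54.6 TPM in SNI and 38.9, 36.7 and 36.5 TPM in sham. Its groups lay further apart for their spread, again with SNI replicate 2 as the lowest of the SNI libraries. Both genes rose in SNI: Defa5 averaged 56.2 ± 5.50 TPM in SNI and 38.8 ± 4.72 TPM in sham (SD, n = 3 each), which on the log2(TPM + 1) scale was a change of 0.53 (SE 0.10; adjusted p = 0.0011 by limma). Np4 averaged 51.7 ± 2.84 TPM in SNI and 37.4 ± 1.33 TPM in sham, a change of 0.46 (SE 0.06; adjusted p = 0.00011 by limma). Of the 1596 genes tested with limma, 32.0% were called higher, 29.2% lower, and 35.3% had every SNI library above every sham library, so that 2 of 3 members called higher is a count to be read against a high background. These calls were 510 higher and 466 lower genes, and 402 and 608 after quantile normalization. With 3 libraries against 3, the smallest two-sided p of an exact permutation test is 0.1, which Defa5 and Np4 each reached.

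**Figure D2:**
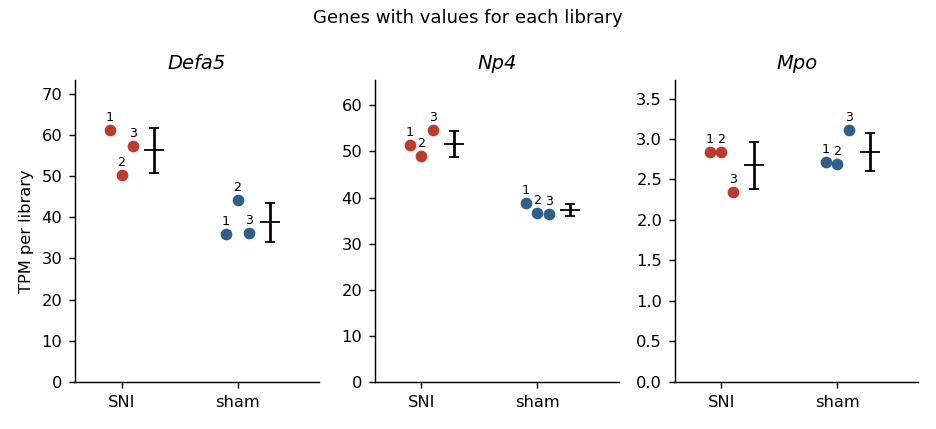
TPM of Defa5, Np4 and Mpo in each library, with axes from 0; points are libraries with their replicate numbers, and the black bar is the group mean with its SD. The SNI points (left in each panel) lie above the sham points for Defa5 (50.3 to 61.1 TPM in SNI and 35.9 to 44.2 TPM in sham) and Np4 (49.0 to 54.6 TPM in SNI and 36.5 to 38.9 TPM in sham), and overlap with them for Mpo (2.34 to 2.84 TPM in SNI and 2.69 to 3.11 TPM in sham).

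RatNP-3b, given as averages alone, stood at 48.2 TPM in SNI and 34.0 TPM in sham, with average reads of 224 in SNI and 157 in sham and a read ratio of 1.43 (1.27 to 1.61). That lay between the read ratios of Defa5 (1.45, interval 1.29 to 1.63) and Np4 (1.40, interval 1.24 to 1.58), whose intervals overlap with it. The levels of the 3 genes were also alike, and the ranges of Defa5 and Np4 over libraries overlapped in both groups. These 3 are the members whose average read counts were not whole when multiplied by 3 (tolerance 0.001), while those of the other 6 were whole. Of all genes, 64.8% had whole counts by this measure in SNI and 65.4% in sham, so counts that are not whole are common in these data. Some counting tools divide reads that match several genes, which gives fractional counts. Whether that was done here was not tested, and the split of reads among the defensins is uncertain. Defa11, another defensin of the cluster, averaged 6.03 TPM in SNI and 4.70 TPM in sham, a read ratio of 1.31 with an interval of 0.886 to 1.93. The promoters of Np4 and RatNP-3b are shown because both genes had similar ratios and their sequences can be compared. From RefSeq (GRCr8), 250 bases before and 50 after the annotated start, they cover chr16:77199593-77199892 and chr16:77248928-77249227, both on the minus strand. Capitals mark 3 motifs of myeloid transcription factors, searched on both strands: TTNNGNAA (C/EBP), GAGGAA (the PU box) and TGTGGT (RUNX).
Np4: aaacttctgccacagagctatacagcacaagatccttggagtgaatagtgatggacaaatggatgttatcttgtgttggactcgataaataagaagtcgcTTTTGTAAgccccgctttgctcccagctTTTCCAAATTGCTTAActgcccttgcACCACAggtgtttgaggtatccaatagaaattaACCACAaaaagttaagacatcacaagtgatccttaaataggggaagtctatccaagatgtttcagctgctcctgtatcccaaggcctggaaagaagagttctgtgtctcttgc
RatNP-3b: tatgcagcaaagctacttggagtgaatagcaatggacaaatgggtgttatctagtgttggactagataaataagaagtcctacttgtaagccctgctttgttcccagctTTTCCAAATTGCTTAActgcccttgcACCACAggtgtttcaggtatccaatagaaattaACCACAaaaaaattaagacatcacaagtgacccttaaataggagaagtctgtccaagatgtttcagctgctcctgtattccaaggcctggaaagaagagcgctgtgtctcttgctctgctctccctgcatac
Aligned with free ends, since their annotated starts differ by some bases, 259 of 283 columns were identical (91.5%). Np4 holds 3 C/EBP matches and RatNP-3b 2, with 2 RUNX matches in each, no PU box, and no overlap between different motifs. Of 33469 RefSeq promoters of this length, 41.3% hold TTNNGNAA, 27.6% GAGGAA and 17.3% TGTGGT. Among the 7 members with a promoter entry, 5 held TTNNGNAA, 2 GAGGAA and 3 TGTGGT. The motifs were chosen with these sequences in view, and a match describes letters and not a bound site.

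Mpo encodes myeloperoxidase, the azurophil enzyme that makes hypochlorous acid. It stood at 2.84, 2.84 and 2.34 TPM in SNI and 2.72, 2.69 and 3.11 TPM in sham. The groups overlapped, with the lowest value in SNI and the highest in sham. Mpo averaged 2.67 ± 0.289 TPM in SNI and 2.84 ± 0.234 TPM in sham (SD, n = 3 each), a log2 change of −0.07 with a 95% interval of −0.31 to 0.18 (limma adjusted p = 0.62). That interval lies below the fold change of Defa5 and of Np4. Within each library, log2(TPM + 1) of Defa5 exceeded that of Mpo by 3.96 ± 0.199 in SNI and 3.37 ± 0.224 in sham, and every SNI value was above every sham value (exact permutation p = 0.1, two-sided, the smallest possible). For Np4 the excess over Mpo was 3.84 ± 0.189 in SNI and 3.32 ± 0.120 in sham, again with no overlap (exact permutation p = 0.1). Mpo itself changed little, so these differences mostly restate the separation of Defa5 and Np4 and are no further support for it. Of tested genes, 35.3% had every SNI library above every sham library, and no such share was computed for differences from Mpo. The reads behind Mpo were few, with averages of 59.3 in SNI and 62.3 in sham, a read ratio of 0.952 (0.771 to 1.18). After quantile normalization Mpo was called lower, with a log2 fold change of −0.45 (limma adjusted p = 0.0087). The other azurophil genes of the serine protease family were low too. Elane, neutrophil elastase, averaged 2.48 TPM in SNI and 2.66 TPM in sham. Ctsg, cathepsin G, averaged 3.19 TPM in SNI and 2.87 TPM in sham. Prtn3, proteinase 3, averaged 1.48 TPM in SNI and 3.13 TPM in sham, with average reads of 10 in SNI and 21 in sham. Of these 4 azurophil genes, read ratios lay between 0.476 and 1.14, with an interval that held 1 for 3 of them and an interval below 1 for Prtn3 (0.298 to 0.747).

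Camp and Ngp belong to the specific granules. Camp encodes cathelicidin, the precursor of an antimicrobial peptide (CRAMP), and averaged 23.9 TPM in SNI and 14.6 TPM in sham, from average reads of 122 in SNI and 74 in sham. Ngp, neutrophilic granule protein, known from mouse myeloid precursors, averaged 42.5 TPM in SNI and 28.4 TPM in sham, from average reads of 418 in SNI and 278 in sham. The read ratio was 1.65 for Camp (1.39 to 1.96) and 1.50 for Ngp (1.38 to 1.64), in the range of the S100 genes and the defensins. A larger log2 ratio was found in 4.72% of genes for Camp and in 6.25% for Ngp. Among other genes of specific and gelatinase granules, Lcn2, Mmp8, Mmp9 and Olfm4 had larger ratios than Camp and Ngp, and Pglyrp1 and Mmp25 smaller ones. Lcn2, lipocalin 2, which binds iron-carrying siderophores, averaged 48.1 TPM in SNI and 22.4 TPM in sham, a read ratio of 2.17 (1.95 to 2.41). The collagenase Mmp8 averaged 8.78 TPM in SNI and 4.23 TPM in sham (read ratio 2.09). The gelatinase Mmp9 averaged 4.43 TPM in SNI and 1.81 TPM in sham (read ratio 2.47). Olfm4, a marker of a subset of specific granules, averaged 1.57 TPM in SNI and 0.47 TPM in sham (read ratio 3.37), and Pglyrp1, which binds bacterial peptidoglycan, 10.2 TPM in SNI and 7.63 TPM in sham (read ratio 1.35). Mmp25, a metalloprotease held at the membrane, averaged 22.9 TPM in SNI and 24.4 TPM in sham (read ratio 0.946, interval 0.865 to 1.04). The interval lay above 1 for 13 of 15 specific and gelatinase granule genes, against 31.7% of all genes, and held 1 for Mmp25 and Orm1. Several of the 15, such as Cybb, Lcn2 and Slpi, are not particular to neutrophils. The interval lay above 1 for 0 of the 4 azurophil enzymes and for 3 of 6 defensins, of which Defa7 and Defa10 had under 2 average reads in each group. The defensins, peptides of azurophil granules too, were set apart from the enzymes. Reads of the enzymes were few, from 10 (Prtn3 in SNI) to 62.3 (Mpo in sham). The interval of Ctsg (0.844 to 1.54) held the read ratios of Defa5, Np4 and RatNP-3b. The grouping by granule was made after the values were seen, and no test was run on it. It left out Cd63, of the membranes of azurophil granules and of lysosomes in many other cells, whose read ratio was 1.75 (1.68 to 1.81). Lyz2, with a read ratio of 2.14 (2.11 to 2.17), was left out as well. The promoters of Ngp (chr8:119272355-119272654, plus strand) and Mpo (chr10:73092152-73092451, plus strand) from the same RefSeq table (GRCr8) are shown to set a specific granule gene with a higher average beside an azurophil gene without one.
Ngp: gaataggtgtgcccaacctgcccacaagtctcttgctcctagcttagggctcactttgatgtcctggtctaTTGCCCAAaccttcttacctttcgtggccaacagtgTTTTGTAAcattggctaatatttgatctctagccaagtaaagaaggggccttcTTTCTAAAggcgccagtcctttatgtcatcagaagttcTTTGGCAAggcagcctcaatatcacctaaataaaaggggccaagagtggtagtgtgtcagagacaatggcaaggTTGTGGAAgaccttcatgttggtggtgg
Mpo: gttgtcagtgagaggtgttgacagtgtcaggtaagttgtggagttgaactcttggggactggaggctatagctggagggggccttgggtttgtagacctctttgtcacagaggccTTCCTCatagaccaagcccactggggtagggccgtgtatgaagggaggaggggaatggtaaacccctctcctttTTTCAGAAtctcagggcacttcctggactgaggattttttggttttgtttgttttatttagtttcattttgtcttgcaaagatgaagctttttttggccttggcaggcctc
In capitals, Ngp holds 5 matches to TTNNGNAA and none to the other motifs, and Mpo holds 1 match to TTNNGNAA and 1 to GAGGAA. The Camp and Retnlg promoters held no match to any of the 3 motifs.

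**Figure D3:**
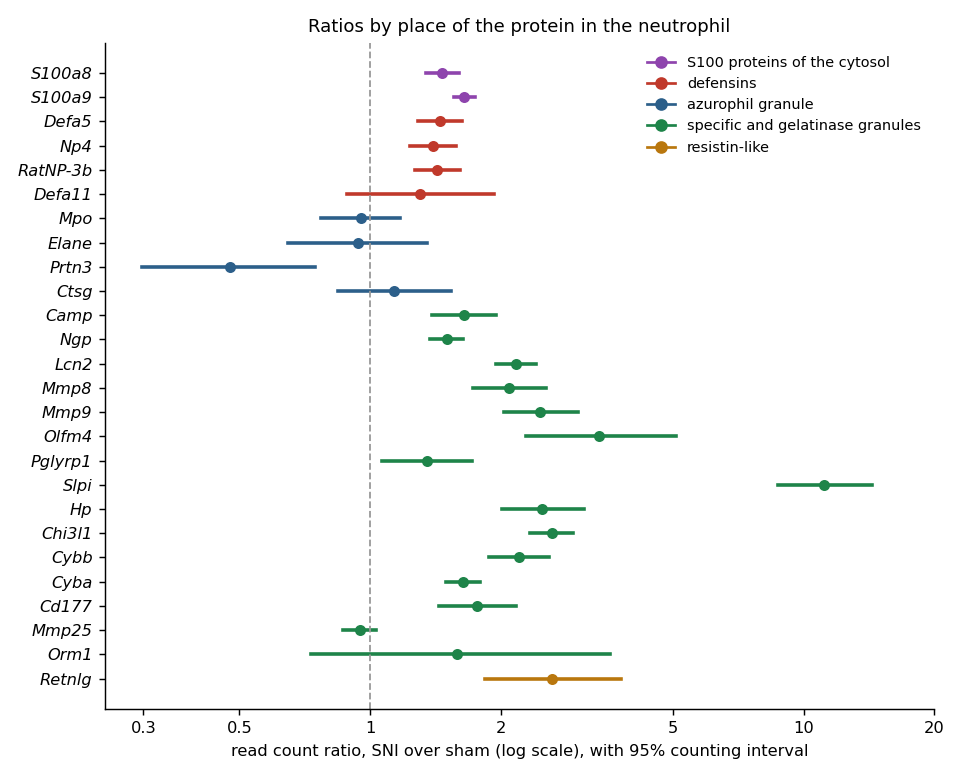
Ratio of average read counts, SNI over sham, on a log axis for genes grouped by the place of the protein in the neutrophil; points are ratios, lines are 95% exact binomial intervals for counting error only, and the dashed line marks a ratio of 1. Defa7 and Defa10, under 2 average reads in each group, are not drawn, and neither are Cd63 and Lyz2, which were left out of the grouping. The 4 azurophil enzymes lie around or below the line (0.476 to 1.14), and the points of the 15 specific and gelatinase granule genes run from Mmp25 (0.946) to Slpi (11.1), with 13 intervals to the right of the line.

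Retnlg encodes resistin-like gamma, a secreted protein known from neutrophils and marrow of the mouse. It had the largest ratio of the members, with averages of 8.02 TPM in SNI and 3.10 TPM in sham and a read ratio of 2.62 (1.85 to 3.78). It was also among the least abundant, with 39.3 average reads in SNI and 15 in sham. Retnlg was the single member in the authors' deposited table of higher genes, which held 3.63% of all genes with averages, and no member was in the table of lower genes (0.695%). The test behind these tables is not stated in the sources, and 670 genes with a read ratio of at least 2.02 were not listed as higher.

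The patterns nearest to each gene over the 6 libraries were found by the root-mean-square difference of log2(TPM + 1) values centred on the mean of each gene, among 1596 genes. Nearest to Defa5 were Cd8a (0.060), RT1-CE4 (0.071) and Cfd (0.079). Nearest to Np4 were LOC102555634 (0.019), Irgm (0.021) and Tmem255b (0.032). The difference between Defa5 and Np4 themselves was 0.134, which placed Np4 at rank 34 for Defa5 and Defa5 at rank 219 for Np4. The libraries did not order both genes alike, since Defa5 was highest in SNI replicate 1 and Np4 in SNI replicate 3. Nearest to Mpo were Apol9a (0.042), Ctsk (0.043) and Id3 (0.056).

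Other genes of neutrophils were set beside the members. Of 30 other granule and oxidase genes with averages, 27 had a higher average in SNI and 3 a lower one (Mmp25, Elane and Prtn3), with a median log2 ratio of 0.72. The authors' deposited tables listed 13 of the 30 as higher and 0 as lower, against 3.63% and 0.695% of all genes. The 30 include 3 granule genes of eosinophils, Prg2, Prg3 and Epx, which were all higher and are all among the 13. These counts and the median are therefore not those of neutrophil genes alone. All 4 that were tested with limma rose, as did 32.0% of all tested genes. These were Lyz2, lysozyme, which macrophages make as well (1543 ± 18.4 TPM in SNI and 727 ± 31.1 TPM in sham), and the protease inhibitor Serpinb1a. The others were Cd63, of the membranes of azurophil granules and of lysosomes in many other cells, and the chitinase-like Chi3l1 (23.7 ± 0.862 TPM in SNI and 9.14 ± 0.642 TPM in sham). The largest ratio was that of Slpi, an inhibitor of elastase, at 46.7 TPM in SNI and 4.24 TPM in sham. Cybb, the catalytic subunit of the phagocyte oxidase, averaged 10.9 TPM in SNI and 4.99 TPM in sham, and its partner Ncf4 9.42 TPM in SNI and 4.26 TPM in sham.

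Of 26 surface genes of neutrophils, 24 had a higher average in SNI, with a median log2 ratio of 0.92, and 14 were listed as higher in the authors' deposited tables. The counting interval of the read ratio lay above 1 for 21 of the 26, against 31.7% of all genes. It lay below 1 for the most abundant, Cd24, at 171 TPM in SNI and 186 TPM in sham. Csf3r, the receptor of the growth factor G-CSF, averaged 6.94 TPM in SNI and 1.60 TPM in sham. Cxcr2, the receptor for chemokines that call neutrophils, averaged 2.45 TPM in SNI and 0.827 TPM in sham. The decoy receptor Il1r2 averaged 3.94 TPM in SNI and 0.263 TPM in sham, the value in sham from 3.33 average reads. The formyl peptide receptors Fpr1 and Fpr2 were under 1 TPM in both groups, with intervals that held 1 (0.856 to 2.32 and 0.418 to 1.71). Of 3 surface genes tested with limma, all rose, against 32.0% of all tested genes: Fcgr3a, Itgal and Lilrb3, which other white cells carry too. Of 15 genes that recruit neutrophils, 12 had a higher average in SNI. In the authors' deposited table of higher genes were 7 of the 15, against 3.63% of all genes. Selp, P-selectin of platelets and vessel walls (3.33 ± 0.301 TPM in SNI and 1.31 ± 0.105 TPM in sham), and the chemokine Cxcl3 (2.35 ± 0.517 TPM in SNI and 0.173 ± 0.166 TPM in sham) rose with limma. The chemokine Cxcl1 averaged 1.24 TPM in SNI and 0.363 TPM in sham, and Cxcl2 1.08 TPM in SNI and 0.0667 TPM in sham.

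For the receptor side of S100A8 and S100A9 and the regulators of granulocyte growth, median log2 ratios were smaller than that of the members (0.54). Both were above that of all genes (0.02). Of 9 receptors and partners, 7 had a higher average in SNI, with a median log2 ratio of 0.43. The counting interval of the read ratio lay above 1 for 7 of the 9 and below 1 for 1. In the authors' deposited table, 2 of the 9 were listed as higher, against 3.63% of all genes. Tlr4 averaged 3.70 TPM in SNI and 2.73 TPM in sham, its co-receptor Cd14 13.0 TPM in SNI and 6.33 TPM in sham, and Ager, which encodes RAGE, 4.18 TPM in SNI and 4.96 TPM in sham. Of 16 genes of granulocyte precursors, 13 had a higher average, with a median of 0.40. Here the interval lay above 1 for 9 and below 1 for 1, against 31.7% and 23.3% of all genes. The authors' deposited table listed 5 of the 16 as higher, against 3.63% of all genes. They are Cebpd, Spi1 (read ratio 2.21), Irf8 (2.58), Mki67 (2.35) and Top2a (3.40). Mki67 and Top2a are genes of dividing cells of any type, and Cebpd, Spi1 and Irf8 are not particular to granulocyte precursors. The counts for this list are therefore not those of granulocyte precursors alone. Cebpd, a transcription factor of the C/EBP family, rose to 100.4 ± 1.59 TPM in SNI, against 41.8 ± 4.71 TPM in sham, and Cebpb rose to 22.8 ± 1.69 TPM in SNI, against 16.8 ± 1.81 TPM in sham. Fcnb, ficolin B of marrow myeloid cells, was not called, at 12.4 ± 1.47 TPM in SNI and 12.0 ± 0.875 TPM in sham. Cebpe and Gfi1, transcription factors of granule formation in the marrow, were under 1 TPM in both groups. Ms4a3, a marker of granulocyte and monocyte precursors, averaged 1.06 TPM in SNI and 0.97 TPM in sham. The interval of the read ratio held 1 for Fcnb (0.904 to 1.21), Cebpe (0.869 to 4.06), Gfi1 (0.466 to 1.24) and Ms4a3 (0.682 to 2.13).

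**Figure D4:**
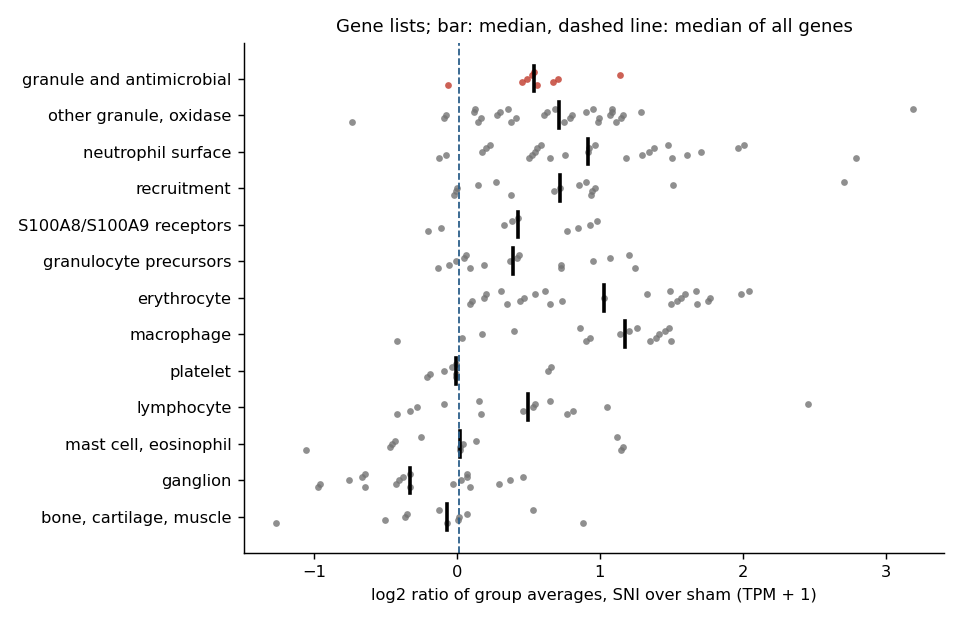
Log2 ratio of group averages, SNI over sham on the TPM + 1 scale, for each gene of 13 lists, with the granule and antimicrobial genes in red, a black bar at each list's median and a dashed line at the median of all genes (0.02). The median of the granule and antimicrobial genes (0.54) lies above that line and below the medians of the erythrocyte (1.03) and macrophage (1.17) lists, while the ganglion list lies to the left (−0.33).

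Erythrocyte markers and most macrophage and lymphocyte markers also had higher averages in SNI, while most ganglion markers did not. Most platelet markers did not either, but most of those were under 1 TPM in both groups. All 25 erythrocyte genes with averages were higher in SNI, and their averages summed to 4874 TPM in SNI and 1759 TPM in sham. The authors' deposited table listed 16 of them as higher, against 3.63% of all genes. All 11 erythrocyte genes with values per library rose with limma, against 32.0% of all tested genes. Their sums were 4401 to 4525 TPM in SNI and 1351 to 1563 TPM in sham. Of 16 macrophage markers, 15 were higher, with sums of 885 TPM in SNI and 417 TPM in sham. Of 6 tested with limma, 3 rose, Lyve1 fell (4.59 ± 0.511 TPM in SNI and 6.46 ± 0.573 TPM in sham, limma adjusted p = 0.0059), and Cd163 and Mrc1 were not called. The summed erythrocyte level was 2.77 times and the summed macrophage level 2.12 times as high in SNI as in sham, against 1.53 times for the 9 granule and antimicrobial genes. Of 9 platelet genes 2 were higher in SNI. Only 3 of the 9 had a larger average of at least 1 TPM, of which 2 were higher (median log2 ratio 0.64). The summed level of the 9 was 1.49 times as high in SNI as in sham. Most of it came from Pf4, at 19.8 TPM in SNI and 12.3 TPM in sham. Of 14 lymphocyte genes 10 were higher in SNI. No marker in these lists was at 0 in either average. None of the 18696 genes with averages was, so this does not set the markers apart. The part of blood or of other white cells in the levels of the granule genes was not tested. All 19 markers of neurons, satellite cells and Schwann cells that define the labelled tissue were present, at 46.3 TPM or more in SNI and 44.6 TPM or more in sham. Of 11 bone, cartilage and muscle genes, 5 had a higher average in SNI, and their sums were 30.6 TPM in SNI and 36.8 TPM in sham.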

How the data were processed

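The 9 measured members and all gene lists were chosen with earlier results of these data known. Per the labels' protocols, RNA came from frozen ganglia, and these name both Trizol and mirVana extraction and both TruSeq and NEBNext Ultra library kits. No source used here names the aligner, counter, build, annotation or use of strand, so reads of overlapping or antisense genes cannot be told apart. The authors deposited TPM per library for 1637 genes and average TPM for 18696 genes. As deposited by the authors, the second table also holds estimated counts averaged over the libraries of each group. The averages of libraries equalled the deposited averages in all 1628 shared genes within 0.001 TPM. Per the file headers 1 group is named control, taken as sham, with its numbers taken as the sham numbers. How the 1637 genes were selected is not known, and 1469 of them are in neither deposited list. TPM keeps no depth, so the depth of a library is unknown. The deposited average counts summed to 18.6 M in SNI and 18.6 M in sham.

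The 1596 genes whose mean over libraries reached 1 TPM were transformed as log2(TPM + 1). They were fitted by limma 3.58.1 in R 4.3.3 (trended prior, no covariate beside the group), and p-values were adjusted by Benjamini-Hochberg over all 1596 and called under 0.05. The fit was tested on simulated data. Count ratios carry 95% exact binomial (Clopper-Pearson) intervals on average counts multiplied by 3 and rounded, as values without a test. Of 233 list entries, 211 matched gene IDs of the files. All members, and of each list the 3 most abundant, those with library values and those in the authors' lists could be named; other names (Fpr1, Fpr2, Cebpe, Gfi1, Ms4a3, the azurophil proteases, Pglyrp1, Defa11, Defa7, Defa10, Cxcl1, Mmp25, Orm1, Cyba, Cd177, Tlr4, Ager, Mcpt2 and Ccr3) were chosen after their values were seen. Python 3.11.15, pandas 2.3.3, scipy 1.17.1 and Biopython 1.88 were used. Pseudocounts, filters, quantile normalization, no trend, a replicate block and leaving out each library were tried as alternatives.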

Additional observations from a re-analysis of the deposited data

How the results depend on the processing

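Defa5 and Np4 were called higher under all 13 alternatives to the limma fit, with log2 fold changes of 0.46 to 0.62 and 0.41 to 0.49. Mpo was called under 1 of 12, quantile normalization, where the members called lower went to 1, against 0 as reported, and its values over the 12 ran from −0.45 to 0.00175 (limma adjusted p between 0.0087 and 0.99). The cause was not tested. Quantile normalization within this partial table also gave 402 higher and 608 lower genes, against 510 and 466. Leaving out 1 library each gave 442 to 522 higher and 381 to 477 lower genes, with 2 members higher and 0 lower throughout. Deviations of same-numbered libraries from their group means had correlations of −0.088, −0.059 and 0.19, within the range of other pairs (−0.29 to 0.29). With 3 libraries a group this cannot show whether same-numbered libraries share a source, and none is known. The fit with a replicate block called 498 genes higher and 447 lower, with 2 members higher and 0 lower. All 18 alternative ratios of group averages (pseudocount of 0.1 TPM, or read counts) lay within the counting interval. That interval comes from the same group averages, so this says little about how firm the ratios are. At a larger average of at least 1 TPM, 8 members still had a higher average and 1 was in the authors' list. The other 6 members have no value per library, which limits their ratios to counting error.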

Other observations

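Granule genes of eosinophils, a related white cell, had higher averages in SNI and are counted among the other granule and oxidase genes above. Prg2, the major basic protein, averaged 12.9 TPM in SNI and 5.21 TPM in sham, Prg3 3.64 TPM in SNI and 1.18 TPM in sham, and the eosinophil peroxidase Epx 2.01 TPM in SNI and 0.36 TPM in sham. All 3 are in the authors' deposited table of higher genes. The eotaxin receptor Ccr3 was under 0.05 TPM in both groups. Most mast cell proteases had lower averages in SNI. Mcpt1l1 fell to 1.44 ± 0.521 TPM in SNI, against 4.08 ± 0.616 TPM in sham (n = 3 each, limma adjusted p = 0.00039), and Cma1, Cpa3, Tpsb2 and Tpsab1 averaged 0.38, 0.383, 0.273 and 0.15 TPM in SNI and 0.887, 0.65, 0.76 and 0.55 TPM in sham, under the level needed for a test. Mcpt2 averaged 0.15 TPM in SNI and 0.05 TPM in sham, from 1 average read or fewer in each group. Hdc, the enzyme of histamine synthesis in mast cells and other white cells, averaged 2.47 TPM in SNI and 0.593 TPM in sham.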
